A study of Mus musculus with 2 samples.

Results

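The replication-dependent histone genes were described in polyadenylated RNA of inflammation-experienced regulatory T cells from a male mouse of 6 months. Members were the protein-coding GENCODE M21 genes whose names begin with Hist1h to Hist4h. There were 67 of them among 22028 protein-coding genes and 55536 genes in all. Of these, 6 encoded the linker histone H1, 18 encoded H2A, 18 encoded H2B, 12 encoded H3 and 13 encoded H4. The mouse was of the Foxp3CreERT2 x Rosa26YFP strain, which carries an inducible Cre recombinase under the control of Foxp3 and a fluorescent reporter at Rosa26. The labels call the sample a primary cell that came from a bone marrow hematopoietic cell. They name neither the inflammatory stimulus nor a Cre-inducing treatment. A single group was available, with 1 biological replicate from which 2 technical libraries (sheared, size range 100 to 300 bp) were made, and no control group was analysed here. Every difference given below is therefore between 2 libraries of one biological sample, and its spread is technical.

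Nucleosomes hold DNA around pairs of the core histones H2A, H2B, H3 and H4, and H1 binds the DNA between them. Replication-dependent histone genes lie in clusters, mostly lack introns, and are expressed chiefly while DNA is copied. Most of their mRNAs end in a conserved stem-loop in place of a poly(A) tail. The stem-loop is bound by SLBP, and the pre-mRNA is cut just after it with the help of the U7 snRNP. Some of these genes can also give polyadenylated mRNA from a poly(A) signal farther downstream. Regulatory T cells divide during immune responses, and the share of dividing cells in this sample was not measured. In bulk RNA, fewer cells with a transcript and less of it per cell cannot be told apart.

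Libraries of this kind are made from RNA with a poly(A) tail, so the 3′ ends of the annotated transcripts are shown first. The search was for GGNNNTNNTNANNNCC, on the transcript strand, with 6 paired bases in the stem and a loop of 4 bases. It was found in transcripts of 46 of the 67 members, or 68.7%, and in 402 of 21951 protein-coding genes with a transcript sequence, or 1.83%. The search ran over whole transcripts of any length. For 11 of the 21 members without a match the annotated model held only the coding sequence, so its 3′ end was not in the searched sequence. The sequences below are from GENCODE M21 transcripts (mm10), 5′ to 3′, and capitals mark the 16 bases of the stem-loop. They are examples from the H1, H2A and H4 classes, among them the H4 gene that was listed at 0, and were picked to show models that end near the stem-loop and models that run far past it.
Hist1h1c: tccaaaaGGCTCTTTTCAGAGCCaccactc
Hist1h1e: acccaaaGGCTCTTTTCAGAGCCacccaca
Hist1h2ap: aaaaaaaGGCTCTTTTCAGAGCCatc
Hist2h2aa2: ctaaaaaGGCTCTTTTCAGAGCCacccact
Hist1h2ae: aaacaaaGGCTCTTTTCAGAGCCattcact
Hist1h4d: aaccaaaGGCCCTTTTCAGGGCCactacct
Hist2h4: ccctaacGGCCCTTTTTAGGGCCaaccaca
Hist4h4: ccacaaaGGCCCTTTTCAGGGCCcacaaag
Hist1h4j: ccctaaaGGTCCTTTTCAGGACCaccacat

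The stem told the H4 genes from the others. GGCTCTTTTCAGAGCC was the most frequent form, in 26 members, and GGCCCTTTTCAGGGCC was the next, in 7. All 34 matches in H1, H2A, H2B and H3 genes began with GGCTC and ended with GAGCC. Of the 12 matches in H4 genes, 10 began with GGCCC and 2 began with GGTCC. The printed Hist1h4d and Hist1h4j lines show both H4 forms, the first in the H4 gene of highest level and the second in the H4 gene at 0 in both libraries.

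The models also differed in how far they ran past the stem-loop. In 23 members the annotated transcript ended within 100 nt after it, as in Hist1h2ap, which ended 3 nt after it. In 23 others it ran over 100 nt farther, as in Hist4h4, where 2445 nt followed. RefSeq models (GRCm38.p6) of 42 of the 46 members with a match ended 3 to 7 nt after the stem-loop. The GENCODE model of Hist1h4d went 766 nt past its RefSeq end, that of Hist1h1c 836 nt, that of Hist2h4 1252 nt and that of Hist3h2a 1638 nt. A poly(A) signal hexamer, AATAAA or ATTAAA, stood in the last 50 bases of a transcript of 17 members, or 25.4%. The same holds for 80.7% of the protein-coding genes. A gene was counted if any of its transcripts had the hexamer, and only 5 members had several transcripts. A further limit is that 11 members had models of the coding sequence only, of which 0 had a hexamer. The 2 shares were not matched for this. Examples of the downstream ends follow, with the hexamer in capitals.
Hist1h1c: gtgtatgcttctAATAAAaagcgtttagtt
Hist1h2ae: cccagcttctccAATAAAtgggtcaatttt
Hist2h4: tcgtatacataaAATAAAatcttaaaaaca
Hist3h2a: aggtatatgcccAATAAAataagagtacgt
Hist4h4: tagaggagatgaAATAAAtac

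Together the members made up little of the polyadenylated RNA that was sequenced. Libraries made from RNA with a poly(A) tail need not hold mRNA that ends at the stem-loop. The sums given here are therefore no measure of all histone mRNA in the cells. Their estimated counts summed to 2150 of 15386113 gene counts in technical replicate 1 and to 1732 of 13604480 in technical replicate 2. These are 0.0140% (Wilson 95% interval 0.0134% to 0.0146%) and 0.0127% (0.0121% to 0.0133%), with intervals that cover counting error only. On the TPM scale, which is per transcript length, the members summed to 274.7 and 230.4 TPM, a mean of 252.6 ± 31.3 TPM (SD of the 2 technical libraries). A member was called detected if both libraries gave it at least 1 TPM. This held for 33 of the 67 members, or 49.3%, and for 46.7% of all protein-coding genes. The median over the members was 1.16 TPM, and over the protein-coding genes it was 0.66 TPM. A further 13 members were at 0 in both libraries and 12 were at 0 in exactly one.

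**Figure D1:**
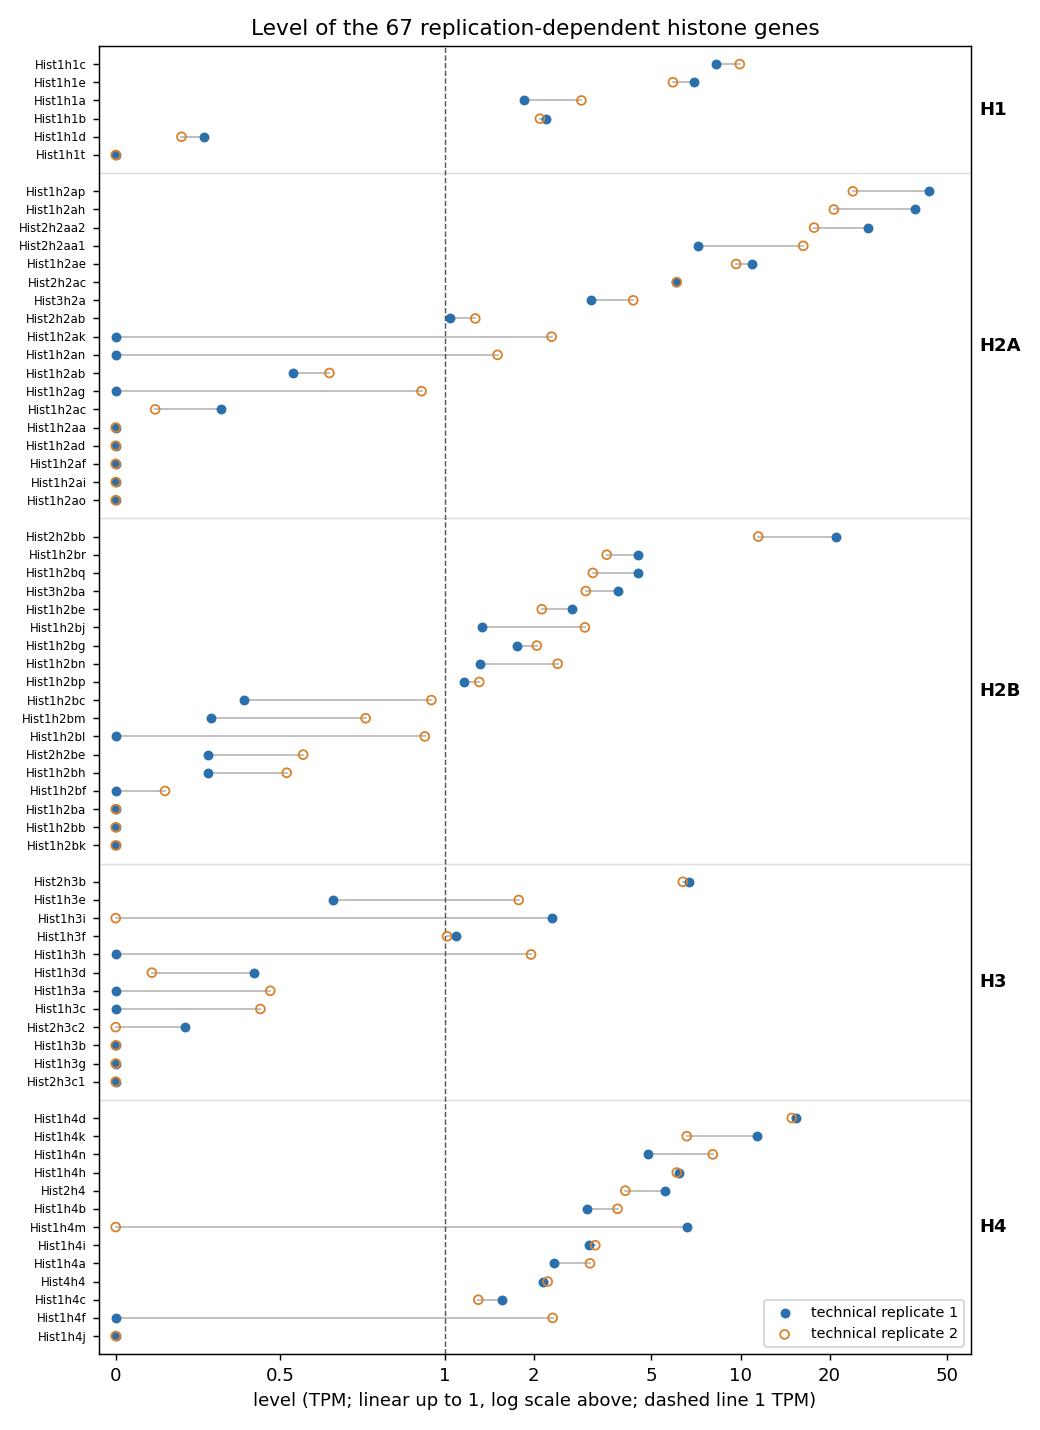
Level of each member in TPM, by histone class and ordered by the mean of both libraries within a class; filled points are technical replicate 1, open points technical replicate 2, and the axis is linear up to 1 TPM and logarithmic above. Of the 67 genes, 33 lie at or right of the dashed 1 TPM line in both libraries, and Hist1h2ap lies farthest right at 43.2 and 23.96 TPM.

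The classes held unequal shares of this signal. H2A genes summed to 138.2 and 105.5 TPM in technical replicates 1 and 2, and H4 genes to 62.1 and 55.7 TPM. H2B genes summed to 43.4 and 36.0 TPM, H1 genes to 19.6 and 21.05 TPM, and H3 genes to 11.4 and 12.2 TPM. The order of the TPM sums was the same in both libraries. By estimated counts, which are not divided by length, H1 genes stood above H2B genes, with 378.3 and 341.2 against 275.4 and 227.2. By the share of genes detected the order was different, with H4 at 10 of 13, H1 at 4 of 6, H2B at 9 of 18, H2A at 8 of 18 and H3 at 2 of 12. The class medians were 3.31 TPM for H4, 2.27 for H1, 0.95 for H2A and 0.96 for H2B, and 0.25 for H3. The H2A sum was thus carried by few genes, and its first 5 members made up 92.0% and 83.7% of it. This was not particular to H2A. The first 5 members made up 94.5% and 91.6% of the H3 sum and 84.3% and 64.8% of the H2B sum. For H4 they made up 69.8% and 71.3%, and for H1, with 6 genes, 100% in both libraries.

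How much of each gene could be told from its relatives bears on all of these values. Each transcript was read in overlapping windows of 50 bases, which is the gene length minus the authors' effective length, plus 1. A window counted as unique if no other GENCODE gene held it on the transcript strand. Only 14 members had 80% or more unique windows, 37 had 20 to 80% and 16 had under 20%. Estimated counts were whole for 11.1% of the members above 0 in technical replicate 1, and for 66.0% of the protein-coding genes above 0, so most members had reads divided between genes. The 16 of least unique sequence held 140.3 and 100.2 TPM, or 51.1% and 43.5% of the summed TPM. The 14 of most unique sequence held 40.9 and 41.0 TPM. Among those 14, the H4 genes summed to 24.7 and 22.5 TPM, the H1 genes to 12.6 and 15.1, the H2B genes to 3.26 and 3.22 and the H2A genes to 0.32 and 0.12, and there was no H3 gene. These sums are over 4 H4, 5 H1, 3 H2B and 2 H2A genes. The 2 H2A genes were Hist1h2ac and Hist1h2aa, so that all 5 leading H2A genes were left out, and the class order cannot be checked on unique sequence alone.

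The H1 genes encode linker histones, and most of their sequence was unique. Hist1h1c (ENSMUSG00000036181.2, chr13:23738808-23740367, plus strand) had the highest level, 8.28 and 9.94 TPM from 155.5 and 164.8 estimated counts. Its share of unique windows was 91.5%, and it is one of the genes whose annotated end lies past the stem-loop, by 840 nt, with the hexamer printed above. Hist1h1e (chr13:23620629-23622558, minus strand) was at 6.98 and 5.91 TPM from 163.1 and 122.0 counts. It overlaps Hist1h2be on the same strand, and 68.0% of its windows were unique.

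The other H1 genes were lower in TPM. Hist1h1a was at 1.86 and 2.90 TPM, and Hist1h1b at 2.20 and 2.10 TPM, each with 100% unique windows and between 16 and 22 counts. Both had whole counts in both libraries. Hist1h1d, the member with the longest model at 7425 nt, was below 1 TPM, at 0.27 and 0.20, from 24.7 and 16.4 counts. TPM divides by length, and the RefSeq model of Hist1h1d has 776 nt. Hist1h1t, the linker histone of the testis, was at 0 in both libraries, which allows up to 0.195 and 0.221 CPM in technical replicates 1 and 2 (3 counts of the gene total). Of the 5 H1 genes tested between the libraries, the lowest adjusted p was 0.270, for Hist1h1c (exact binomial test, adjusted over all genes).

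The H2A genes held the highest single levels. Hist1h2ap (ENSMUSG00000094777.2, chr13:21833026-21833507, minus strand) was at 43.2 and 23.96 TPM from 232.5 and 113.9 counts. Hist1h2ah (chr13:22035164-22035568, minus strand) was at 39.0 and 20.7 TPM from 172.5 and 80.8 counts. Technical replicate 1 was the higher library for both, and their unique windows were only 6.93% and 9.27%. Hist2h2aa2 (chr3:96239749-96240276, minus strand) was at 26.9 and 17.7 TPM, and Hist2h2aa1 (chr3:96245497-96246082, plus strand) at 7.16 and 16.3 TPM. These 2 encode H2A on chromosome 3 and share their 3′ sequence, as the printed Hist2h2aa2 stem-loop is also that of Hist2h2aa1.

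The remaining detected H2A genes varied less between the libraries. Hist1h2ae (chr13:23570517-23571220, minus strand) was at 10.9 and 9.66 TPM, with 56.8% unique windows. Hist2h2ac was at 6.06 and 6.09 TPM, and Hist3h2a at 3.13 and 4.34 TPM from 81.5 and 99.9 counts. Hist3h2a shares 31.5% of its windows with Trim17, a gene on the same strand. Hist2h2ab was the detected H2A gene nearest to the threshold, at 1.04 and 1.27 TPM.

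Among the H2A genes not detected, Hist1h2ak had the highest mean, at 0 and 2.30 TPM. Hist1h2an was at 0 and 1.51 TPM, Hist1h2ag at 0 and 0.93, Hist1h2ab at 0.54 and 0.65 and Hist1h2ac at 0.32 and 0.12. Those at 0 in both libraries were Hist1h2aa, Hist1h2ad, Hist1h2af, Hist1h2ai and Hist1h2ao. A listed 0 need not mean that no read fitted the gene. For Hist1h2ai the authors' posterior mean count was 19.0 with a posterior SD of 17.5 in technical replicate 1, and 15.7 with an SD of 14.1 in technical replicate 2. Hist1h2ai shares 84.0% of its windows with Hist1h2ad.

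The H2B genes were led by Hist2h2bb (ENSMUSG00000105827.1, chr3:96269752-96270132, plus strand), at 21.02 and 11.5 TPM from 86.7 and 41.8 counts. Of its windows, 53.6% lay also in Gm42743, a long noncoding RNA gene on the same strand that was at 0.33 and 0.28 TPM. Hist1h2br was at 4.51 and 3.53 TPM and Hist1h2bq at 4.51 and 3.17 TPM. Hist3h2ba was at 3.85 and 3.00 TPM, and Hist1h2be at 2.70 and 2.13 TPM. The other detected H2B genes, Hist1h2bj, Hist1h2bg, Hist1h2bn and Hist1h2bp, lay between 1.16 and 2.98 TPM, and Hist1h2bp was nearest to the threshold at 1.16 and 1.31.

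H2B members below the threshold were Hist1h2bc, Hist1h2bm, Hist1h2bl, Hist2h2be, Hist1h2bh and Hist1h2bf, of which Hist1h2bc was the highest at 0.39 and 0.96 TPM. Hist1h2ba, Hist1h2bb and Hist1h2bk were at 0. Hist2h2be had 100% unique windows and whole counts, 9 in technical replicate 1 and 16 in technical replicate 2, which came to 0.28 and 0.57 TPM.

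The detected H2B genes with several annotated transcripts showed which form the estimates rest on. For Hist1h2be, the authors assigned 75.2% and 80.6% of the gene's TPM to Hist1h2be-203, a processed transcript of 2099 nt that is annotated without a coding sequence and has no stem-loop match. It overlaps Hist1h1e, and 80.4% of its windows were in no other gene. Hist1h2be-202, the coding form with a stem-loop, took 24.8% and 19.4%. By this estimate, most of the level of Hist1h2be was that of a transcript annotated without a coding sequence. The division of reads between the forms was estimated and was not tested. For Hist1h2br the coding form of 1 exon, Hist1h2br-202, took 100% and 86.7%. The like forms Hist1h2bq-201 and Hist1h2bp-201 took 100% and 96.6%, and 100% in both libraries.

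The H3 genes were the class of lowest level. Hist2h3b (ENSMUSG00000074403.2, chr3:96268654-96269141, plus strand) made up 58.8% and 52.5% of the class sum, at 6.69 and 6.38 TPM from 36.5 and 30.7 counts. Its level was close in the 2 libraries, but 79.7% of its windows were shared with Hist2h3c2. The only other H3 gene detected was Hist1h3f, at 1.09 and 1.02 TPM, and it was also the one nearest above the threshold. Hist1h3e was at 0.66 and 1.78 TPM, Hist1h3i at 2.30 and 0, and Hist1h3h at 0 and 1.96. Hist1h3i and Hist1h3h share 79.3% of their windows, and each was at 0 in the library in which the other was not.

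The rest of the H3 class was at or near 0. Hist1h3d was at 0.42 and 0.11 TPM, Hist1h3a at 0 and 0.47, Hist1h3c at 0 and 0.44 and Hist2h3c2 at 0.21 and 0. Hist1h3b, Hist1h3g and Hist2h3c1 were at 0 in both libraries. For Hist2h3c1 no window was unique, since the longer transcript Gm20634 holds all of its sequence. Gm20634 was at 0.62 and 0.87 TPM.

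The H4 genes had the largest share of detected members. Hist1h4d (ENSMUSG00000061482.7, chr13:23581598-23582735, plus strand) was at 15.4 and 14.9 TPM from 208.6 and 178.1 counts, with 89.8% unique windows. It had the highest level of any member with 80% or more unique windows, and its model runs 770 nt past the stem-loop. Hist2h4 (chr3:96261682-96263311, minus strand) was at 5.54 and 4.08 TPM from 108.8 and 70.8 counts, with 99.0% unique windows. Hist4h4 (chr6:136801553-136804415, minus strand), which stands alone on chromosome 6, was at 2.15 and 2.23 TPM from 75 and 69 counts. Both of these have a downstream hexamer, printed above.

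Other H4 genes of like level had less sequence of their own. Hist1h4k was at 11.4 and 6.58 TPM, with 28.5% unique windows and a model of the coding sequence only. Hist1h4n was at 4.86 and 8.06 TPM, and Hist1h4h at 6.19 and 6.09. Hist1h4b, Hist1h4i, Hist1h4a and Hist1h4c lay between 1.30 and 3.84 TPM, and Hist1h4c was nearest to the threshold at 1.56 and 1.30. Hist1h4m was at 6.61 and 0 TPM and Hist1h4f at 0 and 2.32 TPM. Hist1h4j, with a model that holds a stem-loop and a hexamer, was the H4 gene at 0 in both libraries.

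Between the libraries, genes were compared with a two-sided exact binomial test on rounded estimated counts, Benjamini-Hochberg adjusted over the 17334 genes with at least 10 counts in sum. Of all genes tested, 3328 were called at adjusted p under 0.05, or 19.2%, with 9.42% higher and 9.78% lower in technical replicate 2. Of the 41 members tested, 7 were called, 6 lower and 1 higher. That share lay near the background. The median log2 ratio of the members tested was -0.01, and that of all genes tested was 0.00. The test takes read sampling as the only source of difference and compares these libraries, not conditions. With a common dispersion estimated by edgeR over both libraries as replicates, 1.8% of genes were called, and 2 members, Hist1h4m and Hist2h2aa1.

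The called members were mostly those with little unique sequence. Of the 10 tested members with under 20% unique windows, 6 were called, and of the 19 with 20 to 80%, 1 was, Hist2h2bb. Of the 12 with 80% or more, 0 were called by the exact binomial test, and 1 had an unadjusted p under 0.05. Their smallest adjusted p by that test was 0.149, that of Hist2h4, and their log2 ratios ran from -1.41 for Hist1h2ac to 0.97 for Hist2h2be. Counts per gene also differed between these sets, which bears on what the test can call.

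**Figure D2:**
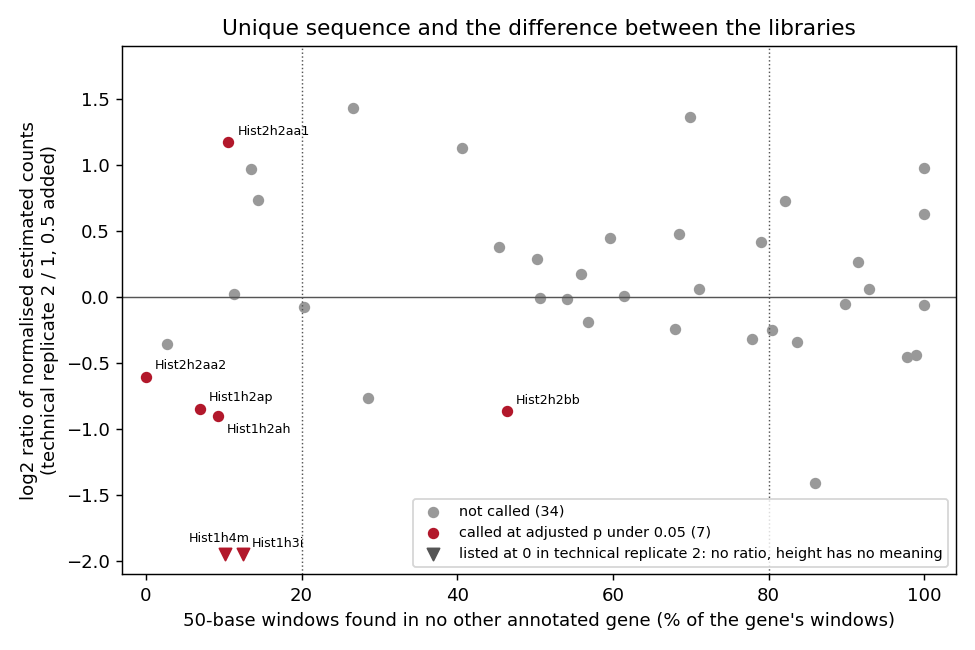
Share of unique 50-base windows of each of the 41 members tested (x axis, %) against its log2 ratio of normalised estimated counts, technical replicate 2 over 1 (y axis); red marks the 7 called members, triangles at the lower edge those listed at 0 in technical replicate 2, for which no ratio is drawn, and dotted lines 20% and 80%. 6 of the red points stand left of the 20% line, and the other one, Hist2h2bb, stands at 46.4%.

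Among the calls, Hist1h2ap fell by 0.85 on the log2 scale in technical replicate 2 (adjusted p = 8.64e-06, exact binomial test). Hist1h2ah fell by 0.91 (adjusted p = 6.82e-05, same exact test), and Hist2h2bb fell by 0.87 (adjusted p = 0.00969, same exact test). Hist2h2aa2 fell by 0.60 (adjusted p = 0.0111, exact binomial test), while Hist2h2aa1 rose by 1.17 (adjusted p = 7.75e-05, same test). Hist1h4m had 29.0 estimated counts in technical replicate 1 and was listed at 0 in technical replicate 2 (adjusted p = 1.68e-06, exact binomial test). Its posterior mean counts were 23.2 with an SD of 13.1, and 7.49 with an SD of 6.40. Hist1h3i had 10.35 estimated counts and a listed 0 (adjusted p = 0.0172, exact binomial test), and posterior mean counts of 7.07 with an SD of 2.81, and 2.48 with an SD of 2.48. No fold is given for these 2 genes, since each was listed at 0 in technical replicate 2. The reads of near-identical genes were divided by estimation, which bears on the folds of Hist1h2ap, Hist1h2ah and the Hist2h2aa genes as well. Hist2h2bb shared windows with Gm42743 only. Its posterior mean counts were 86.4 with an SD of 1.64 in technical replicate 1, and 41.6 with an SD of 1.6 in technical replicate 2. These were close to its estimated counts of 86.7 and 41.8. On posterior mean counts 3 of 47 members tested were called, beside 3106 of 17571 genes. These 3 were Hist1h2ap, Hist1h2ah and Hist2h2bb, and neither Hist1h4m, Hist1h3i nor the Hist2h2aa genes were called.

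Adding near-identical genes together gave an equal sum in both libraries for the Hist2h2aa pair only. The 5 pairs of members that shared at least 85% of the windows of the smaller gene were chosen after the values were seen and were not tested. Hist2h2aa1 and Hist2h2aa2, which share all windows of the smaller gene, summed to 34.0 TPM in each library, from 207.7 and 189.2 counts. Their opposite calls thus left the sum of the pair equal. Other pairs were lower in sum in technical replicate 2. Hist1h4n and Hist1h4m summed to 11.5 and 8.06 TPM, and Hist1h2br and Hist1h2bq to 9.02 and 6.70 TPM.

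In the pairs of the most abundant H2A genes the sum also fell, as the called member did. Hist1h2ao and Hist1h2ap summed to 43.2 and 23.96 TPM, and Hist1h2ah and Hist1h2ad to 39.0 and 20.7 TPM, all of it given to Hist1h2ap and to Hist1h2ah. For Hist1h2ah the authors' posterior mean counts were 91.8 with an SD of 34.3 in technical replicate 1 and 43.7 with an SD of 23.9 in technical replicate 2, well under the 172.5 and 80.8 estimated counts. Outside the rule, Hist1h2aj, an annotated H2A pseudogene that shares windows with 17 members, had 0 estimated counts in technical replicate 1 and 47.1 in technical replicate 2. Its posterior mean counts were 23.2 with an SD of 21.4 and 37.3 with an SD of 21.3, a difference smaller than either SD. Hist1h2al, another such pseudogene, was at 34.4 and 33.0 TPM, near the level of the highest members. Whether reads passed between these genes was not tested.

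**Figure D3:**
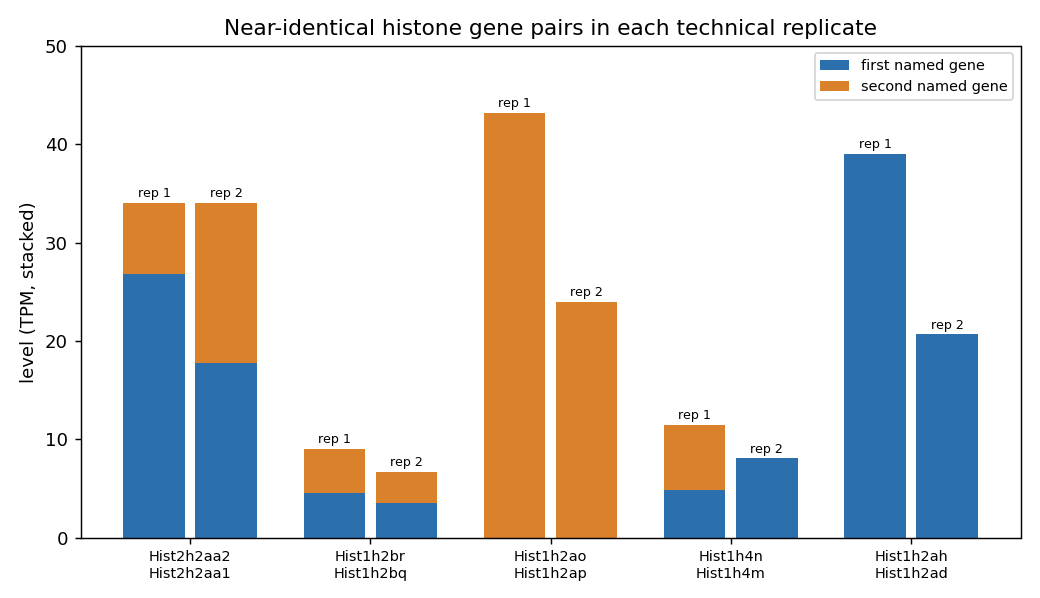
Level in TPM of 5 near-identical pairs of members in technical replicates 1 and 2, stacked, with the first named gene of each pair in blue and the second in orange. The Hist2h2aa pair sums to 34.0 TPM in both libraries while Hist2h2aa2 goes from 26.9 to 17.7 TPM and Hist2h2aa1 from 7.16 to 16.3 TPM, and the Hist1h2ao and Hist1h2ap pair goes from 43.2 to 23.96 TPM.

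The smaller gene table, with whole-number counts over GENCODE M4 genes, gave a second view of the same libraries. It lists 64 of the 67 members, with 552 and 481 counts in sum, or 0.0154% and 0.0147% of its totals. By class these were 221 and 168 for H1, 200 and 189 for H4, 91 and 92 for H2A, 28 and 25 for H2B, and 12 and 7 for H3. That order differs from the order by TPM, in which H2A led. All 16 members with under 20% unique windows are in the smaller table. They had 717.6 and 474.2 estimated counts in the larger table but 5 counts in each library in the smaller one, where 11 of them were at 0 in both. Over all genes the smaller table held 23.3% and 24.04% of the larger table's counts. Hist1h2ap, Hist1h2ah, Hist2h2aa1 and Hist2h2aa2 were among those at 0. How that table treats reads that fit several genes is not given in the sources used here. Genes with more unique sequence had counts there, as Hist1h4d with 95 and 84, Hist1h1e with 98 and 66, Hist1h1c with 81 and 62, Hist4h4 with 42 and 46 and Hist2h4 with 40 and 34. Of the 15 members with at least 10 counts in that table, 0 were called by the exact binomial test and 0 had an unadjusted p under 0.05, beside 726 of 11051 genes called in it.

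How the annotated transcript ends went together with where the counts lay. The 23 members whose model runs over 100 nt past the stem-loop held 52.1% and 55.8% of the members' estimated counts, and 85.3% and 82.5% of their counts in the smaller table. Of these 23, 14 were detected. The 23 whose model ends within 100 nt after the stem-loop held 27.5% and 26.4% of the estimated counts and 5.80% and 6.86% of those in the smaller table, and 9 were detected. Members with a coding-only model held 6.49% and 5.50% of the estimated counts. On the TPM scale, which divides by length, the share of the long models was only 25.8% and 30.2%. The medians were 1.91 TPM for the long models and 0.60 TPM for those that end near the stem-loop.

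The long models also held more unique sequence. Their median share of unique windows was 75.4%, against 40.6% for the models that end near the stem-loop, and their median length was 1249 nt against 482 nt. The parts of length, unique sequence and 3′ end in these shares cannot be told apart from gene totals. Of the 17 members with a hexamer in the last 50 bases of a transcript, 13 were detected, or 76.5%. Of the 50 without one, 20 were, or 40%. For Hist1h2br, Hist1h2bq and Hist1h2bp, which are among the 13, the hexamer stood only in transcripts that took at most 13.3% of the gene's TPM. Within the long models the counts were 9 of 12 with a hexamer and 5 of 11 without one, and Hist1h4d and Hist1h1e were among the latter. Among members with an annotated UTR and no stem-loop match the order was the other way, with 2 of 3 detected with a hexamer and 5 of 7 without.

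**Figure D4:**
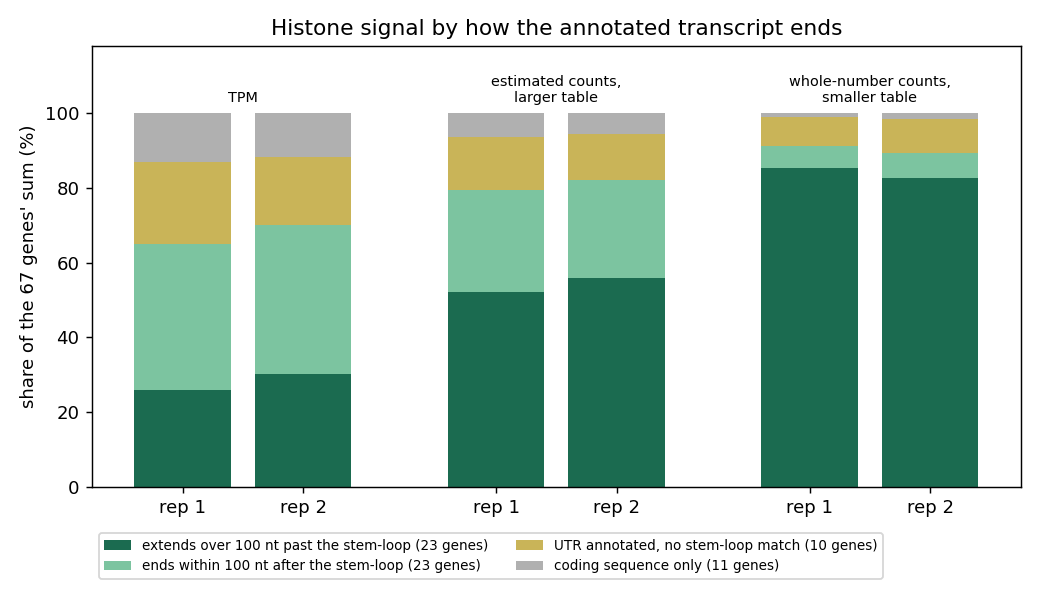
Share of the 67 members' sum, in %, held by each kind of annotated transcript end, for TPM, for estimated counts of the larger table and for whole-number counts of the smaller table, in technical replicates 1 and 2. The dark green part, members whose model runs over 100 nt past the stem-loop, is 25.8% and 30.2% of TPM and 85.3% and 82.5% of the smaller table's counts.

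The number in a member's name is that of its cluster, so positions follow from the choice of members. Of the 67 genes, 54 lie in the Hist1 cluster on chromosome 13, 10 in Hist2 on chromosome 3, 2 in Hist3 on chromosome 11 and 1, Hist4h4, on chromosome 6. In the Hist2 cluster 7 of 10 genes were detected, with a median of 5.44 TPM, and in Hist1 23 of 54, with a median of 1.10 TPM. There were 12 pairs of an H2A and an H2B gene that point away from each other with their starts within 500 nt, 175 to 305 nt apart. The listed levels within these pairs did not go together in one direction. The H2A gene was listed as the higher in both libraries in 4 pairs, and the H2B gene in 4 others. Hist1h2ah was listed at 39.0 and 20.7 TPM while its partner Hist1h2bk was at 0. Hist1h2bq was listed at 4.51 and 3.17 TPM while its partner Hist1h2ao was at 0. That last pair is a near copy of the pair of Hist1h2ap and Hist1h2br, where the H2A gene was listed as the higher. Hist1h2ap and Hist1h2ao share 93.5% of the windows of the smaller gene, and Hist1h2br and Hist1h2bq share 97.3%. Reads of such genes were divided by estimation, so the tally cannot tell which partner had the higher level.

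Promoter sequence, 250 bases before to 50 after the start, was matched in RefSeq for 62 members. CCAAT, on either strand, was in 53 of these, or 85.5%, and in 37.9% of 27025 promoters. It was in all 50 promoters of H1, H2A, H2B and H3 genes but in 3 of 12 of H4 genes. TATAAA, also on either strand, was in 56.5% of the members' promoters and in 14.2% of all. ATTTGCAT, the octamer letters, again on either strand, was in 20.97% of the members' promoters and in 1.75% of all. It was in 7 of 18 H2A and 6 of 16 H2B promoters and in none of the 28 others. For each of these motifs, neighbours that point away from each other can hold the same match, as Hist1h2ah and Hist1h2bk do. The windows below, on the gene's strand with the motif in capitals, show an H1, an H4 and an H2B promoter (GRCm38.p6).
Hist1h1c, chr13:23738741-23738769, plus strand: gccgctggagcaCCAATcagcgcgcgcct
Hist1h4d, chr13:23581524-23581553, plus strand: ccgcattggtatTATAAAagccaggaaggc
Hist2h2bb, chr3:96269641-96269670, plus strand: tgtgaaacctcATTTGCATacaagctctat

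The replication-independent histone genes, whose mRNAs are mostly polyadenylated, were far higher in sum in these libraries. The part of poly(A) selection in that difference was not tested. Of 19 such genes listed, 17 were found, 9 were detected and the median was 11.1 TPM. Their sum was 3233 and 3154 TPM, beside 274.7 and 230.4 TPM for the 67 members. H3f3b and H3f3a, which encode the variant H3.3, were at 1545 and 1461 TPM and at 412.0 and 447.1 TPM. H2afz, the gene of H2A.Z, was at 900.6 and 871.2 TPM. Below 1 TPM were H2afb1, H2afb2, H2afb3, H2afy2, H1fx, H1foo, H1fnt and Hils1. H2afx, at 10.7 and 11.6 TPM, shared windows with 16 members. Of the 9 tested in the same exact test, 3 were called, 1 higher and 2 lower in technical replicate 2. Over all genes tested, 19.2% were called.

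Genes that make and regulate histone mRNA were nearly all detected, 26 of 29, with a median of 23.6 TPM. Slbp, which encodes the stem-loop binding protein, was at 90.4 and 97.8 TPM. Npat, which encodes an activator of histone gene transcription, was at 9.34 and 7.29 TPM, and Casp8ap2, whose protein binds NPAT, at 35.1 and 31.0 TPM. The U7 snRNP genes Lsm10 and Lsm11 were at 54.7 and 59.3 TPM and at 1.46 and 0.84 TPM. The highest of the list were the RNA-binding factor gene Mbnl1, at 742.2 and 696.9 TPM, and the Sm protein genes Snrpg, at 334.9 and 325.9, and Snrpe, at 298.0 and 291.2. Lsm11, E2f1 and Zfp473, which encodes a U7 snRNP-associated zinc finger protein, were below 1 TPM in at least one library. Of the 29 tested, 9 were called, 5 higher and 4 lower in technical replicate 2, beside 19.2% of all genes tested.

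Histone chaperone genes were detected in 28 of 29 cases, with a median of 29.2 TPM. Of the 29 tested, 6 were called, 2 higher and 4 lower in technical replicate 2, beside 19.2% of all genes tested. Npm1 was at 1085 and 1058 TPM, Set at 282.7 and 291.5 and Rbbp4 at 262.4 and 244.1. Chaf1a, which encodes a subunit of the replication-coupled assembly factor CAF-1, was the one below 1 TPM, at 0.98 and 0.77. All 31 S phase genes listed were detected, with a median of 17.2 TPM. Pcna, the sliding clamp of DNA polymerases, was at 110.9 and 102.8 TPM. The replicative helicase genes Mcm6 and Mcm4 were at 69.2 and 73.2 TPM and at 48.2 and 51.1 TPM. Of the 31, 7 were called in the exact test, 1 higher and 6 lower in technical replicate 2, beside 9.42% higher and 9.78% lower over all genes tested.

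**Figure D5:**
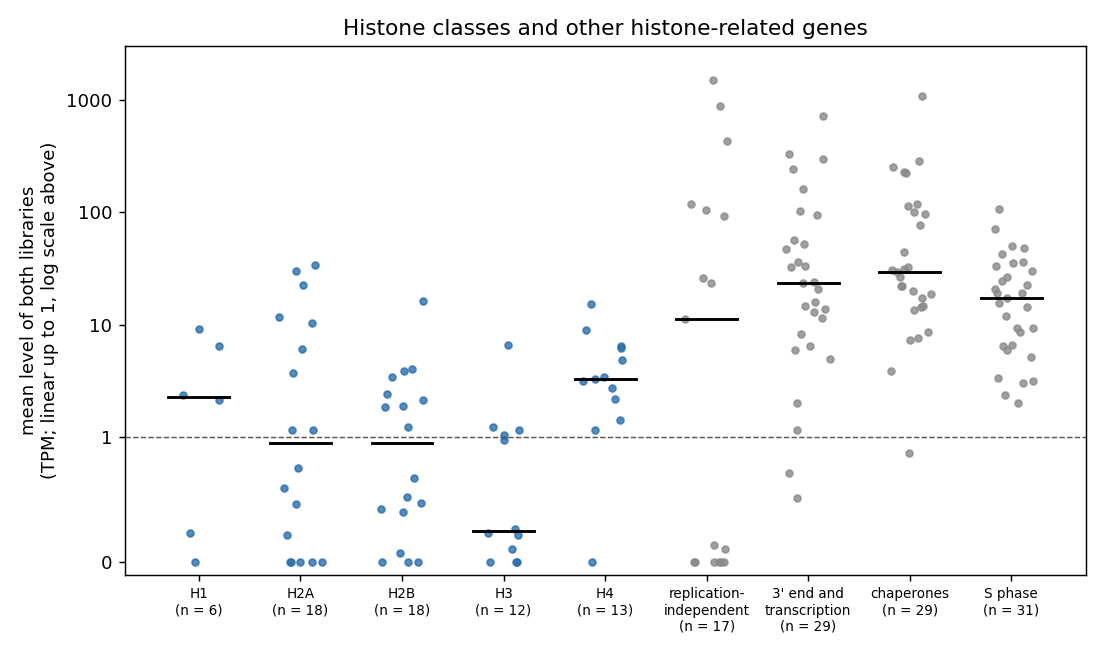
Mean level of both libraries in TPM (y axis, linear up to 1 and logarithmic above) of each member by class, in blue, and of genes of 4 other lists, in grey; each point is a gene, black lines are medians, and the sideways position within a group has no meaning. The class medians lie between 0.25 TPM for H3 and 3.31 TPM for H4, and the medians of the other lists between 11.1 and 29.2 TPM.

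The sample's identity was checked with 10 T cell and regulatory T cell markers, and 10 of 10 were detected. They ran from Foxp3, at 22.05 and 17.9 TPM, to Trbc2, at 3803 and 3725 TPM. Of 22 markers of other cell types, 6 were detected, namely Pecam1, Hbb-bs, Jchain, Hba-a1, Cd8a and Epcam. These 22 summed to 104.4 and 96.3 TPM, most of it from Pecam1, which was at 74.64 and 74.58 TPM and thus above Foxp3. Jchain, a plasma cell gene, fell from 10.2 to 1.22 TPM (adjusted p = 7.11e-26, exact binomial test). Of the 13 of these markers that were tested, Jchain was the only one called, beside 19.2% of all genes tested. Its part in the members' values was not tested.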

How the data were processed

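The authors deposited, per the file headers, a gene table with estimated counts, posterior mean counts and their SD, TPM and TPM credibility bounds (recorded as signal values), and a transcript table with TPM and each transcript's percent of its gene. Both cover mm10 with GENCODE M21. A smaller deposited table holds whole-number counts over genes of GENCODE M4. Build and annotation are as written in the text that accompanies the libraries. The aligner, the quantifier and the strand setting are not given in the sources used here.

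Members and lists were chosen with earlier results of these data known. TPM was used as deposited. Estimated counts were rounded for the exact binomial test (scipy 1.17.1), where TMM effective sizes (edgeR 4.0.16) set the share of reads assumed for each library, at least 10 counts in sum, and Benjamini-Hochberg adjustment over all genes. Log2 ratios had 0.5 counts added. A count was called whole within 0.005. Unique windows used 50 bases, since gene length exceeded effective length by 49 in 99.9% of entries. Sequence features came from GENCODE M21 transcripts and RefSeq promoters.

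Named were the 5 members of highest mean TPM in each class, all called members, those nearest to 1 TPM and those at 0, and of other lists the 3 highest and those below 1 TPM. Any other gene was named after its values were seen. DESeq2 1.42.0 size factors, other thresholds and the other tables were alternatives.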

Additional observations from a re-analysis of the deposited data

How the results depend on the processing

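The number of members detected was 33, and lay between 25 and 38 with 0.5 or 2 TPM, with 10 counts or with posterior mean TPM, and between 35 and 38 with 1 technical replicate left out. It was 3 among members with whole counts in both libraries and 8 among those with 80% or more unique windows, sets that hold 17 and 14 members. A listed 0 counted as whole, so the 17 include the 13 members at 0 in both libraries, which could not be detected. The summed level of 252.6 TPM was 225.9 with posterior mean TPM and 230.4 to 274.7 with 1 technical replicate left out. It was 219.0 without Hist1h2ap, 7.14 over members with whole counts and 40.9 over those of 80% unique windows, sets that leave out most members. Genes called between the libraries numbered 3328, against 726 in the smaller table, which tests fewer genes at lower depth, and 312 with the edgeR dispersion. Members called numbered 7 of 41, 7 with DESeq2 size factors, 7 with library totals and 10 of 54 without the count minimum. Over all genes, 3374 of 17334 were called with DESeq2 size factors and 3316 with library totals. Without the count minimum 2802 of 29305 genes were called, a smaller share than that of the members. With posterior mean counts 3 of 47 members were called (Hist1h2ah, Hist1h2ap and Hist2h2bb), beside 3106 of 17571 genes, a larger share. With the edgeR dispersion 2 of 41 members were called, beside 312 of 17334 genes. By the exact binomial test 0 of 15 members were called in the smaller table, beside 726 of 11051 genes. It called 0 of 12 with 80% unique windows. In these last sets unadjusted p was under 0.05 for 0 and 1 by the exact binomial test. The cause was not tested. The 80% unique windows setting was chosen after seeing the data. No paired analysis was possible because there is 1 group.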
